A study of Mus musculus with 6 samples.

Results

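Cardiac macrophages called S or G2M were compared with macrophages called G1 in dissociated hearts of adult mice. The macrophages are the cells in the authors' clusters Mac1, Mac2, Mac3 and Mac4, and the phase is the authors' deposited call for each cell. There were 4981 macrophages called S or G2M and 2523 called G1, which makes 7504 macrophages among the 21706 cells of the series. RNA of single cells was counted by Drop-seq, which captures the 3' ends of transcripts in droplets with a molecular barcode (UMI) for each molecule. Control mice were Myh6-MCM adults given tamoxifen. Myh6-MCM drives a Cre recombinase in cardiomyocytes that tamoxifen switches on, so all hearts carried it and all mice had tamoxifen. YAP5SA mice were Yap5SA+/tg; Myh6-MCM adults given tamoxifen, in which Cre turns on an activated form of YAP, the coactivator of the Hippo pathway, in cardiomyocytes and not by design in macrophages. Hearts were digested with collagenase, and a library held either all cells put together again (tissue) or cardiomyocytes enriched by settling (enriched). The 5 libraries with macrophages were Control tissue-2, Control tissue-3, YAP5SA tissue-1, YAP5SA tissue-2 and YAP5SA enriched, while Control enriched held 0. The labels do not say how many hearts went into a library. Unless stated otherwise, the gene tests below compare phases within a library, so differences in level between libraries are taken out. Their p-values set the phase difference against its variation from library to library, with the spread of each gene drawn towards that of other genes. A very small p can therefore rest on this shared spread and not on the 5 libraries of the gene alone. The variation between libraries may be technical and cannot be read as variation between hearts. The permutation p of the share outside G1 rests on the spread between libraries, which may be technical too.

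Tissue macrophages clear dead cells and debris, present antigen and secrete growth factors, and in the heart they are kept up both by division in place and by entry of blood monocytes. A dividing cell passes from G1 into S phase, where DNA is copied by the helicase of the MCM complex, the clamp PCNA and the DNA polymerases, and then through G2 into mitosis, where condensins pack the chromosomes and the spindle separates them. Genes of the S phase machinery are known targets of E2F factors, and genes of G2 and mitosis are known targets of the DREAM and MuvB complexes, which bind the cell cycle homology region (CHR) of their promoters.

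The phase call rests on 2 deposited scores per cell, each the level of a list of cell cycle genes minus that of control genes. A macrophage was G1 when neither score was above 0, with 0 exceptions, and the highest of the larger scores among G1 cells was -0.000139 against 9.24e-05 for the lowest among the others. There were 1393 cells within 0.05 of the cut, 865 of them G1, so the call divides a range and does not separate types. The lists used by the authors are not given in the sources used here. Means over 43 S phase and 54 G2/M genes of the lists commonly used with Seurat followed the deposited scores with r = 0.971 and r = 0.974 across the 7504 cells, a description with no test. These genes chose the groups, so their values are given below without a test, and the tests concern genes outside them. The control genes enter the score with a minus sign and are not known, so a gene among them would be lower in S or G2M by construction. Part of the contrast is a contrast between clusters: Mac4 held 2534 of the 4981 cells in S or G2M (50.9%) and 6 of the G1 cells. It held 86.2% of the 2315 G2M calls and 20.2% of the 2666 S calls. Since clusters were drawn from the same transcripts, each gene list is counted in all macrophages and in Mac1 to Mac3 alone.

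The label was set against its markers in summed counts, which cannot show single cells of another type. All 10 macrophage markers fixed for this purpose (among them Csf1r, Adgre1 and C1qa) were found in each phase of each library, with a summed level of 17450 to 36522 CPM in G1 and 12399 to 30427 CPM in S or G2M (CPM are UMIs per 1e+06 UMIs).

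The share of macrophages outside G1 was 59.6% (358 of 601 cells, exact 95% interval 55.5 to 63.5%) in Control tissue-2 and 47.3% (70 of 148, 39 to 55.7%) in Control tissue-3. It was 67.4% (1226 of 1818, 65.2 to 69.6%) in YAP5SA tissue-1, 65.1% (2024 of 3110, 63.4 to 66.8%) in YAP5SA tissue-2 and 71.3% (1303 of 1827, 69.2 to 73.4%) in YAP5SA enriched. The intervals are Clopper-Pearson intervals and cover counting error only. All 3 YAP5SA libraries were above both Control libraries, with means of 67.9% ± 3.15 (SD, n = 3) and 53.4% ± 8.68 (SD, n = 2). The difference of 14.5 percentage points had an exact two-sided permutation p of 0.1, the smallest that the 10 arrangements allow, so this design cannot reach 0.05. It was 8.38 points without Control tissue-3. In Mac1 to Mac3 the shares were 43.7, 31.9, 50, 48.8 and 53.4% in the same order, a difference of 12.9 points between the genotypes. Fibroblasts of the same libraries had 53.4, 13.7, 37.5, 39.5 and 43.6% of cells outside G1, and Control tissue-2 was the highest among them. These shares were lower than those of Mac1 to Mac4 in 5 of 5 libraries. In Control tissue-2 the fibroblast share was above that of Mac1 to Mac3.

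**Figure D1:**
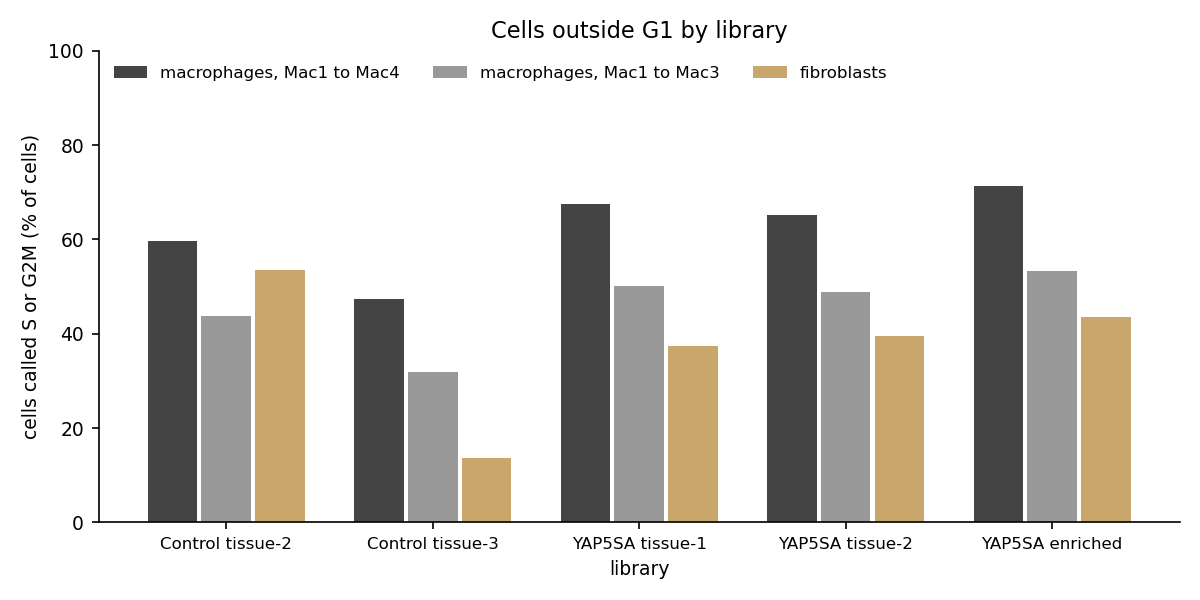
Cells called S or G2M as a percentage of the macrophages (Mac1 to Mac4), of the macrophages without Mac4, and of the fibroblasts, for each library (vertical axis from 0 to 100%). The bars of Mac1 to Mac4 run from 47.3% in Control tissue-3 to 71.3% in YAP5SA enriched, and the fibroblast bar is shorter than these in each library. The bars of Mac1 to Mac3 run from 31.9% in Control tissue-3 to 53.4% in YAP5SA enriched. In Control tissue-2 the fibroblast bar (53.4%) is taller than that of Mac1 to Mac3 (43.7%).

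A call outside G1 is a weaker statement than a dividing cell. When each cell was thinned to 750 UMIs, a UMI of Mki67, the marker of cycling cells that is itself a score gene, was found in 41.7 to 49.8% of G2M macrophages, 12.6 to 14.8% of S macrophages and 0 to 1.57% of G1 macrophages over the 5 libraries. The same gene was found in 0 to 0.0886% of the G1 cardiomyocytes of the 3 Control libraries, a level that free RNA could give. G2M macrophages outside Mac4 had it in 0 to 20.5% over 4 libraries and S macrophages outside Mac4 in 5.98 to 8.97%. A UMI of any mitosis gene outside the score lists was found in 85.7 to 94.9% of G2M cells, in 42.9 to 64.3% of G2M cells outside Mac4 and in 19.5 to 32.7% of G1 cells, against 8.15 to 9.36% of the G1 cardiomyocytes of the Control libraries. At the same depth, 24.6% of G1 macrophages outside Mac4 had no UMI of any score gene, against 0.843% of the S cells and 0.341% of the G2M cells outside Mac4. However, 40.9% of these G1 macrophages had 2 or more such UMIs, against 94% of the S cells and 96.9% of the G2M cells outside Mac4.

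Before the results, several features of the libraries that move with the groups are given here. Control tissue-3 stands apart, with 148 macrophages, a median of 18.3% of UMIs from mitochondrial genes in G1 cells and 17% in the others (2.62 to 6.91% and 2.3 to 5.62% elsewhere), and 7384 and 3808 CPM of 10 fibroblast markers (297 to 715 CPM elsewhere). The mitochondrial percentage was lower in S or G2M in 5 of 5 libraries. The median number of UMIs per cell was higher in S or G2M in 4 of 5 libraries, from 946 against 994.5 in Control tissue-2 to 1511.5 against 2017 in YAP5SA tissue-2, and lower in Control tissue-3 (1017.5 against 1000). At 750 UMIs a cell, the median number of genes found was 454 to 548 in G1 and 484 to 569 in S or G2M, and higher in the latter in each library. Summed levels of 12 cardiomyocyte markers were 1128 to 12852 CPM in G1 and 902 to 12156 CPM in S or G2M, lower in the latter in 5 of 5 libraries. Those of the 10 fibroblast markers were also lower outside G1 in 5 of 5 libraries, with 7 of 10 called lower (4 of 9 without Mac4). Erythroid markers had 1404 CPM in G1 and 499 CPM outside it in YAP5SA enriched, 3.53 and 128 CPM in YAP5SA tissue-1, and 0 to 48.7 CPM in the other libraries. T and NK cell markers went the other way, from 0 to 11.8 CPM in G1, with 5 to 8 of the 8 markers at 0, to 12.1 to 219 CPM in S or G2M. In the summed counts of all macrophages, 193 of the 235 UMIs of T and NK markers lay in Mac4, and 24 cells held 3 or more of them, 21 in Mac4. Of these 21, the 18 called G2M had a median of 0 UMIs of the macrophage markers, against 28 in all G2M cells of Mac4. The 3 called S had a median of 1, against 31.5 in all S cells of Mac4. Outside Mac4, 2 S cells of Mac1 had a median of 24.5 and 1 S cell of Mac3 had 0. Barcodes were shared by libraries in 3 cases among 7501, and no doublet caller was run. The part of these features in the results below was not tested, except where values without a library or cluster are given.

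The score genes are described first, without a test. The 43 S phase genes had a summed level of 415 to 629 CPM in G1 and 3341 to 4202 CPM in S or G2M, and the 54 G2/M genes 1110 to 1466 CPM and 8340 to 12080 CPM (from here on, CPM of a gene or pathway list are scaled by TMM, edgeR's trimmed mean of M values). Pcna, the sliding clamp of DNA replication, had 65 and 342 CPM in Control tissue-2, 66.9 and 167 in Control tissue-3, 34.3 and 172 in YAP5SA tissue-1, 88 and 439.5 in YAP5SA tissue-2 and 27.9 and 252 in YAP5SA enriched, G1 first in each pair. Tyms, thymidylate synthase, had 0 to 26.2 CPM in G1 and 193 to 252 CPM in S or G2M. Mki67 had 20.3 and 468 CPM in Control tissue-2, 0 and 732 in Control tissue-3, 24 and 606 in YAP5SA tissue-1, 29.3 and 497 in YAP5SA tissue-2 and 19.7 and 722 in YAP5SA enriched. Top2a, the topoisomerase that untangles sister chromatids, had 16.2 to 34.4 CPM in G1 and 509 to 1031 CPM in S or G2M. Anp32e, a histone chaperone and the weakest of the 10 score genes with the most UMIs, had 160.5 to 239 CPM in G1 and 218 to 482 CPM in S or G2M, with overlap between the groups. All other 9 of these genes (Nasp, Gmnn, Usp1, Smc4 and Hmgb2 besides those named) had no overlap. Together the score genes took 0.134 to 0.198% of the UMIs in G1 and 1.27 to 1.56% in S or G2M.

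Outside the score lists, edgeR's quasi-likelihood test on counts summed per library and phase, with the library as a block, called 2564 of 9125 features at an adjusted p of 0.05, which is 28.1% of those tested. Of these 1224 (13.4%) were higher and 1340 (14.7%) lower in S or G2M, and 660 and 683 of them moved in that direction in 5 of 5 libraries. Features with a level in macrophages more than 5-fold below that of another cell class numbered 25 among the higher and 204 among the lower. They numbered 914 among all 9222 features tested. The 5 values in S or G2M lay wholly above the 5 in G1 for 329 features (3.61%) and wholly below for 114 (1.25%). Without Mac4, 1351 of 9176 features (14.7%) were called, 773 higher (8.42%) and 578 lower (6.3%), and 709 of the higher and 549 of the lower were called in both sets. Without Control tissue-3 the count over all macrophages was 2785. Without YAP5SA tissue-2, the library with the most macrophages, it was 1389, and 659 in Mac1 to Mac3. It was 2917 in the 3 YAP5SA libraries alone and 39, of which 36 higher, in the 2 Control libraries alone, where 3181 features passed the filter on low counts. Where macrophages were instead grouped by at least 2 UMIs of score genes in 750, a grouping that subtracts no control genes and puts 40.9% of the G1 cells outside Mac4 with the high group, 917 of 5690 features (16.1%) were called, 508 higher (8.93%) and 409 lower (7.19%). With library and cluster together as a block, 1247 of 6172 (20.2%) were called, 611 higher (9.9%) and 636 lower (10.3%). Unless another test is named, the values below are log2 fold changes of S or G2M against G1 with n = 5 libraries in each group, and adjusted p-values are from edgeR's quasi-likelihood test with Benjamini-Hochberg adjustment over all features tested. The median over all features tested outside the score lists was -0.03 in all macrophages and -0.01 in Mac1 to Mac3.

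Genes of DNA replication outside the score lists rose in nearly all tested cases, with and without Mac4. Of 42 members that passed the filter on low counts, 41 were higher and 0 lower, with a median of 1.87, and in Mac1 to Mac3 39 of 40 were higher, with a median of 1.99. The tested member that did not pass was Tonsl, a repair factor of stalled forks, at -0.10 and 0.07. Members at or near 0 in G1 pass the filter only through the cells in S or G2M, so these counts cover tested members and not all members. Lig1, the ligase that joins Okazaki fragments, had 69 and 274 CPM in Control tissue-2, 40.1 and 308 in Control tissue-3, 64.1 and 249 in YAP5SA tissue-1, 56.6 and 292 in YAP5SA tissue-2 and 55.7 and 296 in YAP5SA enriched, with every library higher outside G1 and no overlap (log2 fold change 2.25, SE 0.10, edgeR adjusted p = 9.12e-112). Without Mac4 Lig1 stood at 2.31. 2810417H13Rik, also named Pclaf and coding for a partner of PCNA, had 32.5 and 324 CPM in Control tissue-2, 13.4 and 244 in Control tissue-3, 25.2 and 393 in YAP5SA tissue-1, 32.5 and 334 in YAP5SA tissue-2 and 21.3 and 468 in YAP5SA enriched (log2 fold change 3.69, SE 0.11, edgeR adjusted p = 4.08e-238), and 2.70 without Mac4. Tk1, thymidine kinase, had 0 to 28.4 CPM in G1 and 64.2 to 154 CPM in S or G2M (log2 fold change 3.79, SE 0.17, edgeR adjusted p = 4.34e-106) and 3.11 without Mac4, and all 5 libraries were higher outside G1. The helicase subunits Mcm7 and Mcm3 had 2.13 and 1.84. Asf1b, a chaperone that hands histones to new DNA, had 0 to 8.01 CPM in G1 and 64.2 to 114 CPM in S or G2M and 4.70. Esco2, which acetylates cohesin in S phase, had the largest fitted change, 7.36, but only 1 UMI in G1 over the 5 libraries against 51.4 to 76.7 CPM outside G1, so its fold depends on the prior count and carries no precision.

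Genes of mitosis rose as well, with the higher list median in all macrophages and a lower one where Mac4 was left out. Of 54 tested members outside the score lists, 53 were higher and 0 lower with a median of 4.25, and Espl1, separase, at 0.34 did not pass. In Mac1 to Mac3 only 32 members passed the filter, 30 of them higher, with a median of 2.26. Here too, members at or near 0 in G1 pass the filter only through the cells in S or G2M. The counts and medians therefore cover tested members and not all members, and the fold changes of such members depend on the prior count. Prc1, which bundles the microtubules of the central spindle, had 12.2 and 272 CPM in Control tissue-2, 13.4 and 321 in Control tissue-3, 4.58 and 256 in YAP5SA tissue-1, 4.19 and 184 in YAP5SA tissue-2 and 6.56 and 377 in YAP5SA enriched, with no overlap (log2 fold change 5.46, SE 0.17, edgeR adjusted p = 1.89e-222). Without Mac4 Prc1 stood at 2.36, higher in 3 libraries and lower in 1. Smc2, a condensin ATPase, had 56.9 and 413 CPM in Control tissue-2, 40.1 and 437 in Control tissue-3, 44.6 and 482 in YAP5SA tissue-1, 41.4 and 360.2 in YAP5SA tissue-2 and 45.9 and 638 in YAP5SA enriched (log2 fold change 3.33, SE 0.10, edgeR adjusted p = 1.66e-248), and 2.29 without Mac4. Incenp, the scaffold of the chromosomal passenger complex, had 43.5 to 69 CPM in G1 and 334 to 420 CPM in S or G2M, at 2.90 and 1.39. Cyclins Ccna2 and Ccnb1 had 5.08 and 4.90, and the kinase Plk1 5.19. Ccnb1 had 0, 0, 5.72, 2.62 and 3.28 CPM in G1, and 118, 51.4, 96.5, 89.5 and 130 CPM outside it. Ncapg, a condensin subunit, stood at 5.49, the kinesin Kif15 at 4.87, the checkpoint kinase Bub1b at 4.69, the abscission factor Cep55 at 4.66 and the spindle organiser Aspm at 5.31. Pbk (5.51), Ska1 (4.98) and Melk (4.95), further genes of mitotic cells, complete the set of the largest named changes, together with the histone gene Hist1h2ak at 5.11, whose copies in the histone cluster are near-identical and whose counts are therefore uncertain.

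**Figure D2:**
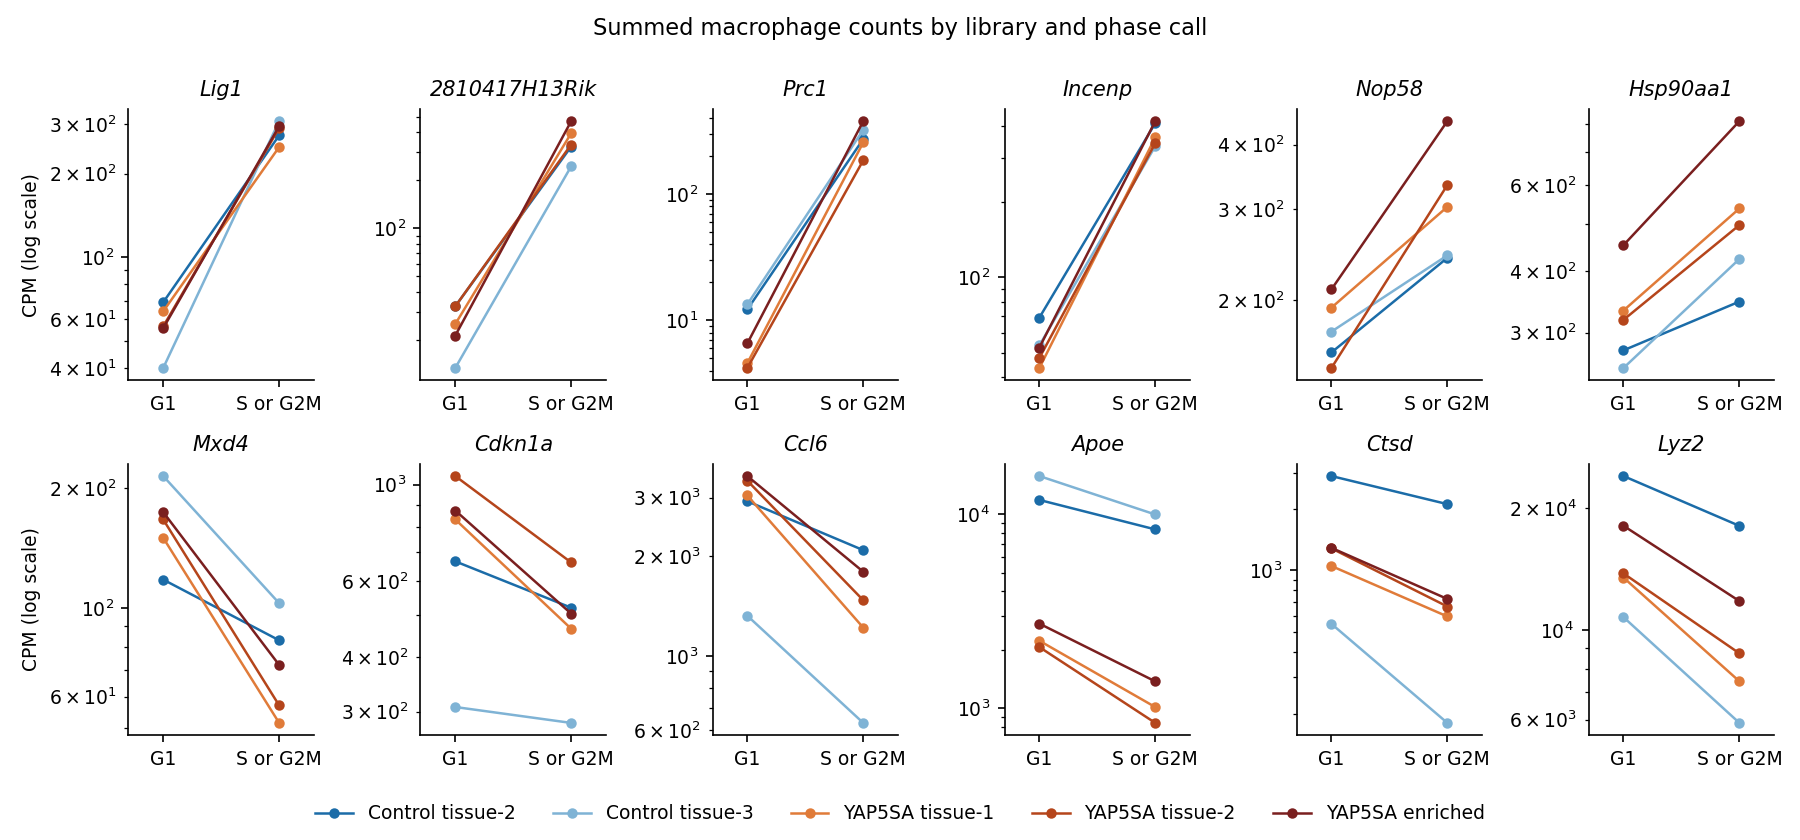
CPM (TMM-scaled, log scale, each panel with its own range) of 12 genes in macrophages called G1 and in macrophages called S or G2M, with 1 line for each of the 5 libraries. The 6 genes of the upper row rise in each library and the 6 of the lower row fall in each library, and for Apoe the 2 Control libraries lie above the 3 YAP5SA libraries in both phases.

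Promoters of 4 mitosis genes and of Asf1b from the replication list are shown because these genes moved together and many mitosis promoters share a letter pattern that the phase call did not use. The table of RefSeq promoters (build GRCm38.p6, 250 bases before to 50 bases after the start, 27025 genes) held 6590 of the 9222 features tested. TTTGAA, the core of the CHR, on either strand was in 24 of 41 promoters of the mitosis genes (58.5%), against 11.7% of the tested genes and 18.1% of all promoters. It was in 4 of 33 promoters of the replication genes (12.1%). TTCGCG, a core of E2F sites, on either strand was in 9 of 33 replication promoters (27.3%), 2 of 41 mitosis promoters (4.88%), 8.77% of the tested genes and 4.12% of all. CCAAT on either strand, the box bound by NF-Y, was in 63.4% of the mitosis promoters, 51.5% of the replication promoters and 38.5% of the tested genes. CHR and CCAAT stood together in 46.3% of the mitosis promoters and 4.89% of the tested genes. A match was counted whether or not it overlapped a match of another pattern. Genes of 1 chromosome were left out of the set that follows. For 13 genes with a promoter in the table that were among the largest named changes or led the mitosis and replication lists, the CHR letters were in the whole promoter of 9. They lay in the 120 bases before the start in 3 (Ncapg, Kif15 and Asf1b), elsewhere in the promoter in Prc1, Aspm, Plk1, Bub1b, Cep55 and Smc2, and not in the promoters of Melk, Ccnb1, Lig1 and Tk1. These 120 bases are given for those 3 and for 2 without the letters there, chosen after the letters were seen, 5' to 3' on the gene's strand, with capitals marking TTTGAA or CCAAT or their reverse complements TTCAAA and ATTGG. Ncapg lies at chr5:45669805-45669924 on the plus strand, Kif15 at chr9:122950961-122951080 on the plus strand, Asf1b at chr8:83955574-83955693 on the plus strand, Prc1 at chr7:80294331-80294450 on the plus strand and Ccnb1 at chr13:100786487-100786606 on the minus strand.
Ncapg: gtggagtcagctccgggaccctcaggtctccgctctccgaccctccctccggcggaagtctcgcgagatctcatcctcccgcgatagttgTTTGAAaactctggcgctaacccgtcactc
Kif15: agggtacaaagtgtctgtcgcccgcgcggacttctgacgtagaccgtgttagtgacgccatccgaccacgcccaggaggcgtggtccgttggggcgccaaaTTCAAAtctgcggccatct
Asf1b: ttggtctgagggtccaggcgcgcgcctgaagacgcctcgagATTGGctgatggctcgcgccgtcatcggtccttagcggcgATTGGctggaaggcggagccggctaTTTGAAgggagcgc
Prc1: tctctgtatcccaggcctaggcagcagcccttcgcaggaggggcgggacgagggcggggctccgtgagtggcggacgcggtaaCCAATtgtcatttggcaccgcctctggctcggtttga
Ccnb1: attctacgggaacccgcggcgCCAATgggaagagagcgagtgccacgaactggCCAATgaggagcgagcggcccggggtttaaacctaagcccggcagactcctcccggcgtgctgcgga
The CHR letters begin 30 bases before the start in Ncapg, 19 before it in Kif15 and 14 before it in Asf1b. Asf1b also holds 2 CCAAT boxes on the other strand. Prc1 holds 1 CCAAT box on its own strand and Ccnb1 holds 2, and both have no CHR letters in this window. A match describes the letters and not a bound site.

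When S and G2M calls were set against G1 in turn, the replication list had its higher median in S and the mitosis list in G2M. The S contrast called 2071 of 9707 features (21.3%, of which 11.3% higher and 10% lower) and the G2M contrast 2552 (26.3%, of which 13.6% higher and 12.7% lower). The replication list had a median of 2.23 in S (42 of 43 higher) and 1.42 in G2M (39 of 43 higher), and the mitosis list 2.97 in S (51 of 55 higher) and 4.88 in G2M (55 of 55 higher). These 2 contrasts share the G1 cells, and without YAP5SA tissue-2 they called 1043 and 1430 features. Lig1 had 2.58 in S and 1.84 in G2M, Mcm3 2.39 and 0.94, and Ccne1, the cyclin of S phase entry, 3.18 and 1.61. Plk1 had 3.06 in S and 6.04 in G2M, Ccnb1 2.53 and 5.82, and Prc1 3.76 and 6.27. Without Mac4 the S contrast called 1273 of 7697 features (16.5%, of which 8.98% higher and 7.56% lower) and the G2M contrast 233 (3.03%, of which 1.65% higher and 1.38% lower), the latter on 4 libraries, since Control tissue-3 had too few such cells. There the replication list had medians of 2.04 and 0.89 (37 and 11 of 38 higher) and the mitosis list 2.19 and 2.69 (30 and 22 of 36 higher). Whether the S and G2M values of a gene differ was not tested. The calls themselves rest on S phase and G2/M genes, so genes that vary with those are favoured in this direction by construction.

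**Figure D3:**
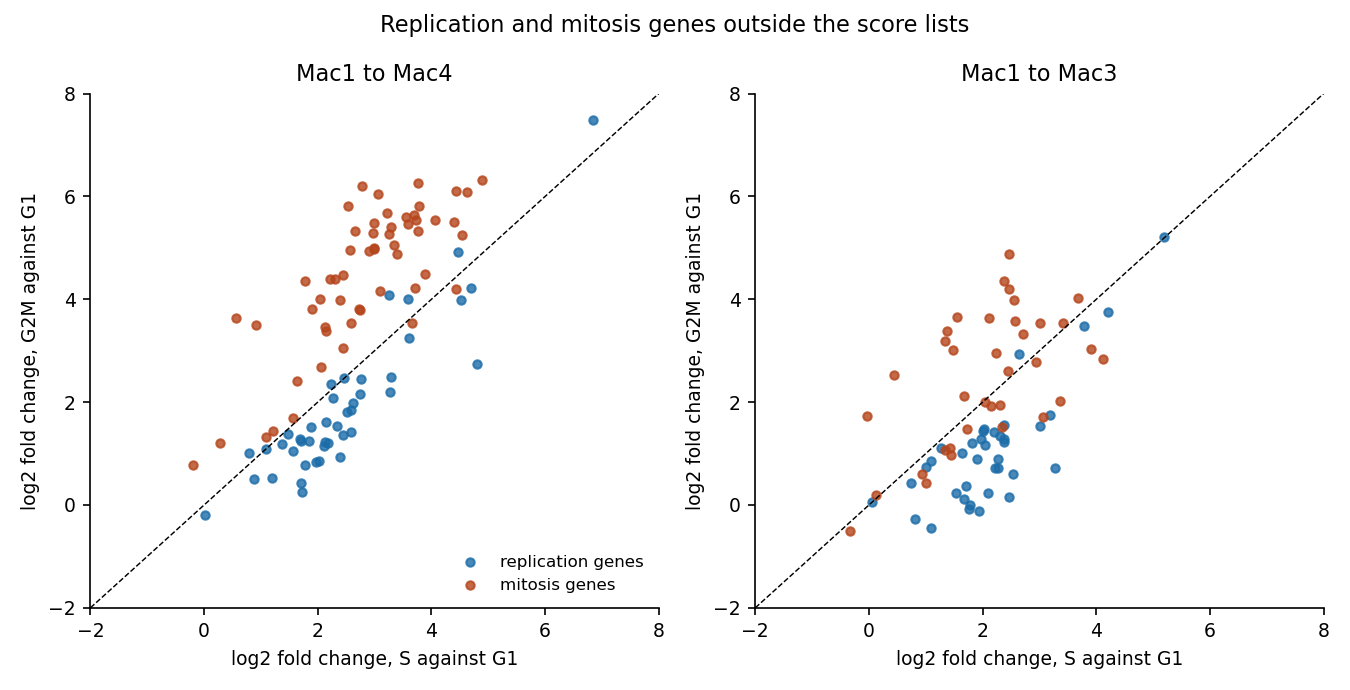
Log2 fold change of each tested replication gene and mitosis gene outside the score lists, S against G1 on the horizontal axis and G2M against G1 on the vertical axis, in all macrophages (left) and in Mac1 to Mac3 (right), with a dashed line of equal values. In the left panel 53 of 55 mitosis genes lie above the line and 8 of 43 replication genes do, and in the right panel 20 of 36 and 2 of 38.

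Abundant genes of chromatin and the spindle rose by smaller steps. Of 35 tested members 30 were higher and 1 lower, with a median of 0.97, and without Mac4 23 of 34 were higher and 2 lower, with a median of 0.65. Tubb5, a beta tubulin, had 353 and 1203 CPM in Control tissue-2, 308 and 745 in Control tissue-3, 350.1 and 1023 in YAP5SA tissue-1, 335 and 939.5 in YAP5SA tissue-2 and 364 and 1061 in YAP5SA enriched (log2 fold change 1.54, SE 0.06, edgeR adjusted p = 2.6e-128). Dek, a chromatin protein, and Tuba1b, an alpha tubulin, had 1.45 and 1.34, and without Mac4 1.22 and 0.87. H2afz, the histone variant H2A.Z, had 1.45, and Stmn1, stathmin, a regulator of microtubules, 2.22. Hist1h1c, a linker histone, did not pass over all macrophages (-0.13) and was lower without Mac4 (log2 fold change -0.94, SE 0.17, edgeR adjusted p = 6.03e-07).

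Regulators of G1 split. Of 27 tested members 7 were higher and 8 lower (5 of 25 lower without YAP5SA tissue-2), with a median of 0.08, and without Mac4 6 were higher and 7 lower. Among the higher, Ccne1 had 2.63, its kinase Cdk2 1.21 and Cdk4, the partner of the D cyclins, 0.95. Cdkn2c, the CDK inhibitor p18, had 36.5 and 83 CPM in Control tissue-2, 0 and 90 in Control tissue-3, 13.7 and 78.9 in YAP5SA tissue-1, 12.6 and 77.9 in YAP5SA tissue-2 and 21.3 and 102 in YAP5SA enriched (log2 fold change 2.39, SE 0.17, edgeR adjusted p = 4.93e-41) and 0.78 without Mac4. Cdkn2d, the inhibitor p19, had 0 to 45.9 CPM in G1 and 77.1 to 164 CPM in S or G2M, with no overlap and log2 fold change 1.65, SE 0.13, edgeR adjusted p = 9.67e-34. It did not pass without Mac4, where Cdkn2d stood at -0.06 (SE 0.20, edgeR adjusted p = 0.902), lower in 4 libraries and higher in 0. Cdkn1a, the inhibitor p21, had 666 and 521 CPM in Control tissue-2, 308 and 283 in Control tissue-3, 832 and 466 in YAP5SA tissue-1, 1047 and 662 in YAP5SA tissue-2 and 872 and 505 in YAP5SA enriched. It was lower in 5 of 5 libraries (log2 fold change -0.70, SE 0.06, edgeR adjusted p = 2.54e-30), and at -0.69 without Mac4. Of the D cyclins, Ccnd1 was lower at -0.33 and Ccnd2 at -0.35, and neither passed without Mac4 (0.05 and -0.03). The genotypes differed in Ccnd1: it was higher outside G1 in both Control libraries, from 223 to 302 CPM and from 268 to 437 CPM, and lower in all 3 YAP5SA libraries, from 760 to 567, 637 to 492 and 744 to 548 CPM. Myc and Rb1 did not pass (0.13 and -0.10).

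Genes that supply building blocks and make proteins rose modestly. Nucleotide synthesis had 17 of 23 tested members higher and 0 lower (median 0.63), with 16 of 23 without Mac4 (median 0.63). Dctpp1, which clears faulty nucleotides, had 49.8 to 70.5 CPM in G1 and 101 to 141 CPM in S or G2M with no overlap (log2 fold change 1.24, SE 0.12, edgeR adjusted p = 2.14e-24). Paics of purine synthesis had 0.63, higher in 4 of 5 libraries, and Mthfd2 of mitochondrial folate metabolism 0.98. Ribosome biogenesis had 14 of 26 members higher and 0 lower (median 0.29), and 15 of 26 without Mac4 (median 0.41). Nop58, a core protein of the snoRNPs that modify ribosomal RNA, had 158 and 242 CPM in Control tissue-2, 174 and 244 in Control tissue-3, 193 and 303 in YAP5SA tissue-1, 148 and 334 in YAP5SA tissue-2 and 209.8 and 444 in YAP5SA enriched, higher in 5 of 5 libraries with no overlap (log2 fold change 0.96, SE 0.08, edgeR adjusted p = 1.52e-34), and 0.95 without Mac4. Nop56, its partner, had 1.10, and Ncl, nucleolin, 0.55, higher in 4 of 5 libraries and lower in Control tissue-3. Chaperones had 14 of 18 members higher and 0 lower (median 0.35), and 15 of 18 without Mac4 (median 0.33). The higher members included all 8 listed subunits of the cytosolic chaperonin that folds tubulin and actin, from Cct8 at 0.22 to Cct7 at 0.42, the cochaperone Stip1 (0.90), Hsp90aa1 (0.69) and the mitochondrial chaperonin Hspd1 (0.52). Translation factors had 11 of 20 higher (median 0.16), and 8 of 20 without Mac4 (median 0.20), with Eif2s1 at 0.40, Eif4a1 at 0.28 and Eif5a at 0.25. Proteasome subunits had 3 of 24 higher, a share close to the background of 13.4% (Psmd12 at 0.27, Psmc3 at 0.25 and Psmd14 at 0.19), and without Mac4 only Psmd12 passed. Some of these counts rest on single libraries: without YAP5SA tissue-2 translation factors had 3 of 20 higher, proteasome subunits 0 of 24 and nucleotide synthesis 10 of 19, and without YAP5SA tissue-1 translation factors had 7 of 20, proteasome subunits 0 of 24 and ribosome biogenesis 9 of 26. Without YAP5SA enriched translation factors had 6 of 20 higher.

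Few genes of energy metabolism passed. Nuclear genes of oxidative phosphorylation had 5 of 45 members higher and 3 lower (median 0.03), or 7 higher and 0 lower when scaled by library totals alone, with Atp5o at 0.21, Uqcr10 at 0.18 and Cox6c at -0.17. Without Mac4 4 were higher and 0 lower, and Uqcr10 and Cox6c did not pass. Glycolysis had 1 of 17 higher (Tpi1, 0.24) and 2 lower, the regulator Pfkfb3 (-0.81) and hexokinase Hk3 (-0.58). Without Mac4 Tpi1 and Ldha were higher, and Pfkfb3 and Hk3 did not pass (-0.46 and -0.38). Of 7 tested mitochondrially encoded genes mt-Nd5 was lower (log2 fold change -0.16, SE 0.05, edgeR adjusted p = 0.0186), without Mac4 it was again the 1 that passed, and 0 of the 7 passed with library totals alone. These shares lie below the background of 28.1%, and without YAP5SA tissue-2 the 5 higher genes of oxidative phosphorylation became 1.

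Genes of macrophage identity were lower outside G1, in small steps and in nearly every library. Of 19 tested core macrophage genes 15 were lower and 1 higher, with a median of -0.27, and without Mac4 9 were lower and 1 higher, with a median of -0.14. Lyz2, lysozyme, had 24010 and 18080 CPM in Control tissue-2, 10750 and 5886 in Control tissue-3, 13470 and 7459 in YAP5SA tissue-1, 13790 and 8747 in YAP5SA tissue-2 and 18090 and 11780 in YAP5SA enriched, lower in 5 of 5 libraries although the groups overlap (log2 fold change -0.67, SE 0.05, edgeR adjusted p = 1.74e-39), and -0.42 without Mac4. Tyrobp, the adaptor of activating receptors, had -0.47 and Ms4a7 -0.75. The exception was Cx3cr1, the fractalkine receptor, with 134 to 336 CPM in G1 and 206 to 395 CPM in S or G2M, higher in 5 of 5 libraries (log2 fold change 0.37, SE 0.07, edgeR adjusted p = 1.42e-06) and at 0.27 without Mac4. The summed level of the list in S or G2M was 0.68 to 0.829 of that in G1.

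Genes that mark resident cardiac macrophages had 16 of 19 tested members lower and 0 higher (median -0.68), and 15 of 19 lower without Mac4 (median -0.38). Ltc4s, leukotriene C4 synthase, had 179 and 141 CPM in Control tissue-2, 1284 and 694 in Control tissue-3, 742 and 419 in YAP5SA tissue-1, 681 and 359.5 in YAP5SA tissue-2 and 556 and 328 in YAP5SA enriched (log2 fold change -0.83, SE 0.06, edgeR adjusted p = 3.87e-39). Sepp1, selenoprotein P, had -0.70 and Cbr2, carbonyl reductase, -0.75, both lower in 5 of 5 libraries. Vsig4, a complement receptor, had 69 and 45.3 CPM in Control tissue-2, 66.9 and 0 in Control tissue-3, 51.5 and 18.1 in YAP5SA tissue-1, 66 and 12.5 in YAP5SA tissue-2 and 73.8 and 35.2 in YAP5SA enriched, with no overlap (log2 fold change -1.68, SE 0.16, edgeR adjusted p = 1.85e-23) and -1.14 without Mac4. Timd4, a receptor for dying cells, had -1.14, and Lyve1, a hyaluronan receptor, -1.11 over all macrophages. Lyve1 did not pass without Mac4, and Mrc1, the mannose receptor, passed in neither set (-0.02 and 0.10). Genes of monocyte-derived macrophages were lower as well, 13 of 16 with 1 higher (median -0.69), and 12 of 17 without Mac4 (median -0.41). Chil3, a lectin of monocytes, had 60.9 and 15.1 CPM in Control tissue-2, 0 and 0 in Control tissue-3, 44.6 and 4.41 in YAP5SA tissue-1, 67.6 and 7.5 in YAP5SA tissue-2 and 45.9 and 9.46 in YAP5SA enriched (log2 fold change -2.90, SE 0.21, edgeR adjusted p = 1.12e-40). Fn1, fibronectin, had -0.73 and Ccl9 -0.69, and Cxcl2, a chemokine for neutrophils, was the member that was higher (0.28). Both the resident and the monocyte-derived list were thus lower. The 6 tested monocyte markers, 5 of which are members of the monocyte-derived list, were lower in 6 of 6 cases and in 5 of 6 without Mac4.

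**Figure D4:**
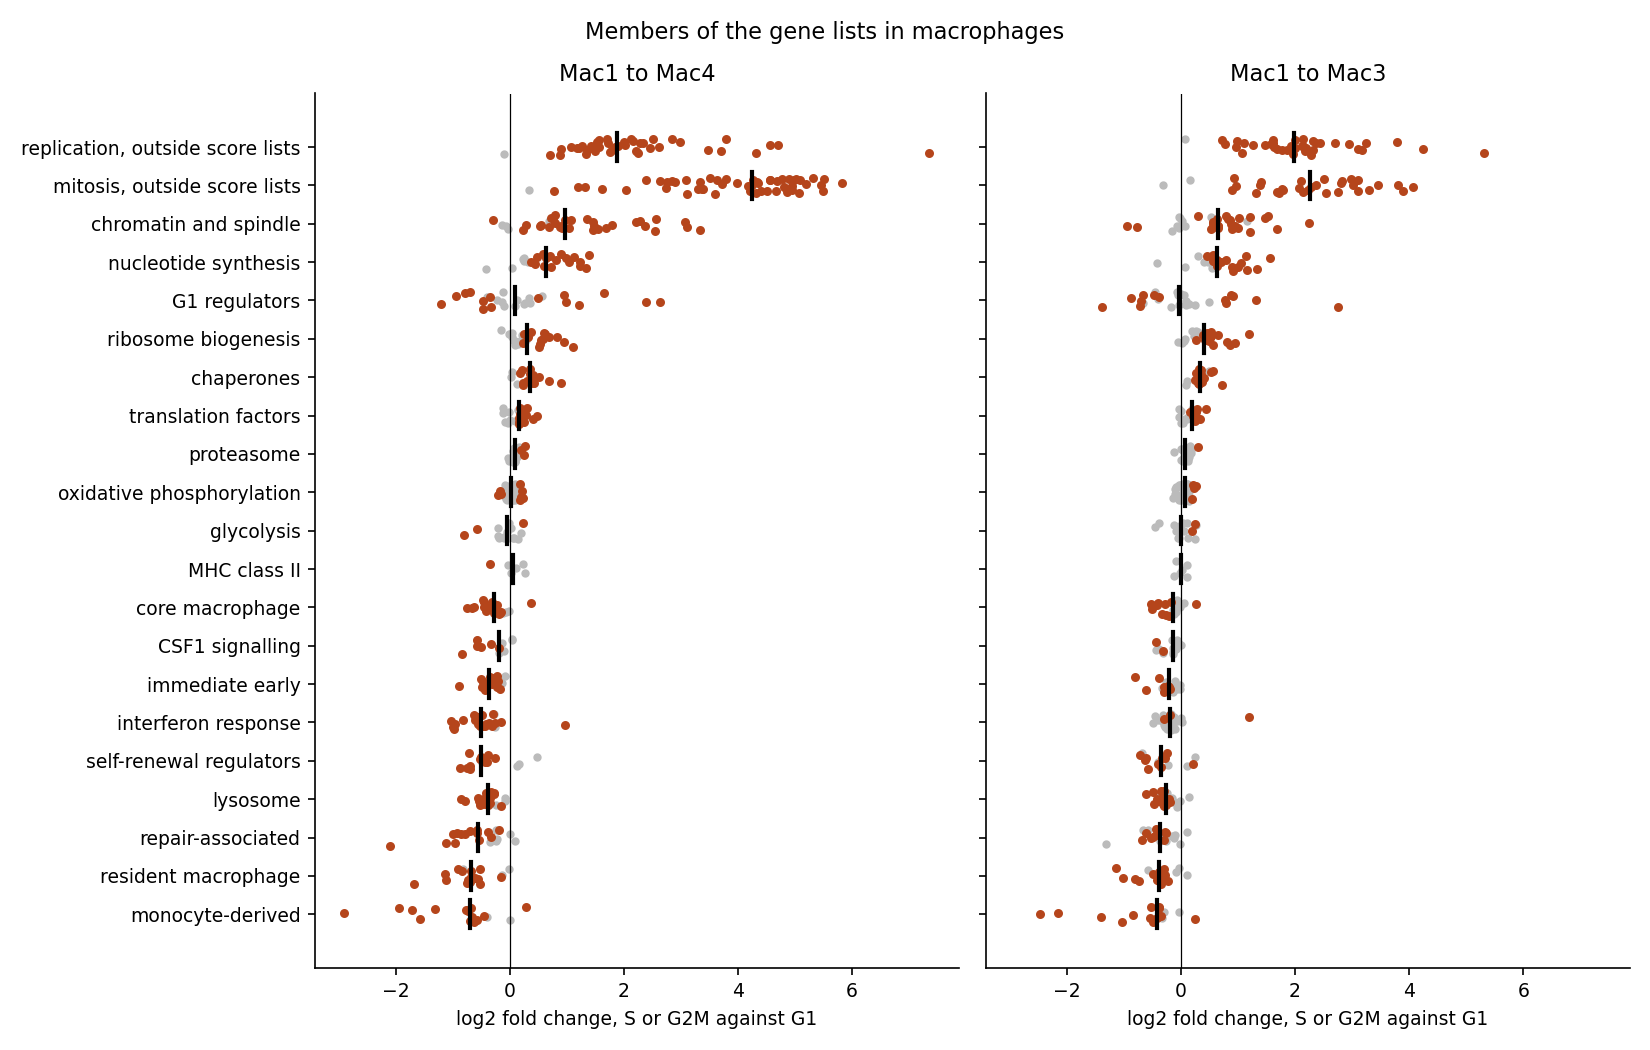
Log2 fold change of S or G2M against G1 for each tested member of 21 gene lists, in all macrophages (left) and in Mac1 to Mac3 (right). Points in red passed an adjusted p of 0.05 and grey points did not, black bars mark the list medians, and the positions of points within a row are spread for legibility. Replication and mitosis lie furthest to the right, and the medians of the core macrophage, resident, monocyte-derived, repair and lysosome lists lie to the left of 0.

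Genes tied to tissue repair and to the lysosome followed the same direction. Of 20 repair-associated genes 14 were lower and 0 higher (median -0.55), and 9 of 20 without Mac4 (median -0.36). Ctsd, cathepsin D, had 2891 and 2108 CPM in Control tissue-2, 548 and 179.9 in Control tissue-3, 1051 and 596 in YAP5SA tissue-1, 1282 and 666 in YAP5SA tissue-2 and 1289 and 725 in YAP5SA enriched (log2 fold change -0.79, SE 0.06, edgeR adjusted p = 1.05e-44). Spp1, osteopontin, had 13530 and 8840 CPM in Control tissue-2, 0 and 12.8 in Control tissue-3, 1405 and 808 in YAP5SA tissue-1, 4187 and 2199 in YAP5SA tissue-2 and 4165 and 3011 in YAP5SA enriched (log2 fold change -0.70, SE 0.05, edgeR adjusted p = 2.63e-37), and its UMIs in Control tissue-3 numbered 0 in G1 and 1 outside it. Arg1, arginase, had -2.10 with 0 CPM in both phases of Control tissue-3, and did not pass without Mac4 (-1.31, edgeR adjusted p = 0.137). Among 25 lysosomal genes 21 were lower and 0 higher (median -0.39), and 16 of 25 without Mac4 (median -0.27), or 10 when YAP5SA tissue-2 was left out as well, with Ctsl, cathepsin L, at -0.85 and Ctsb, cathepsin B, at -0.52. Pla2g7, Pltp and Apoe, which act on or carry lipids, were lower, at -1.10, -1.10 and -0.93, and so were Smpdl3a and Tmem86a at -1.15 and -1.09. MHC class II genes had 1 of 6 lower (H2-DMa, -0.35), near the background of 14.7% called lower, and 0 without Mac4, where H2-DMa stood at -0.12. H2-Ab1 (0.24) and H2-Eb1 (0.26) did not pass over all macrophages. The summed level of this list in S or G2M was 0.948 to 1.11 of that in G1.

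Most of the listed regulators of macrophage self-renewal were lower. In background, c-Maf restrains macrophage self-renewal, and Mxd4, which is not a member of this list, is an antagonist of Myc. The list was not split by the direction in which its members act, so its counts give no direction of self-renewal. Of 15 tested members of the list of self-renewal regulators 11 were lower and 0 higher (median -0.51), and without Mac4 9 were lower and 1, Id2, higher (median -0.34). Maf had -0.52 and Klf2 -0.74. Klf4 and Bhlhe40 were also lower in both sets, Bhlhe41 was lower over all macrophages only, and Myc passed in neither set. Mxd4 had 118 and 83 CPM in Control tissue-2, 214 and 103 in Control tissue-3, 149.9 and 51.6 in YAP5SA tissue-1, 167 and 57 in YAP5SA tissue-2 and 174 and 72 in YAP5SA enriched, with no overlap (log2 fold change -1.39, SE 0.10, edgeR adjusted p = 4.76e-39). Without Mac4 Mxd4 was still at -1.05 and lower in 5 of 5 libraries. Of 13 genes of CSF1 and related signalling 6 were lower (median -0.20) and 2 without Mac4, with Il4ra at -0.57, Inpp5d at -0.50 and Csf2rb at -0.58. Without Mac4 those that passed were Inpp5d and Csf2ra, while Il4ra stood at -0.14 and Csf2rb at -0.39 (edgeR adjusted p = 0.385 and 0.055). The share without Mac4, 2 of 13, is close to the background of 14.7%. Immediate early genes, which answer growth factors and stress, were lower in 15 of 18 cases (median -0.37), in 9 of 18 without YAP5SA tissue-2, and in 8 of 18 without Mac4 (median -0.21), or 4 when YAP5SA tissue-2 was left out as well, with Junb at -0.44, Btg2 at -0.47 and Ier3 at -0.34. Chemokines and cytokines had 10 of 19 lower and 2 higher (6 of 18 lower without YAP5SA tissue-1), with Ccl6 at -1.03 and Ccl8 at -1.03 among the lower. Without Mac4 6 of 21 were lower and 4 higher (Cxcl10, Cxcl2, Ccl4 and Ccl7), and Ccl7, a chemokine for monocytes, turned from -0.25 to 0.15, past the threshold in both. Wfdc17 (log2 fold change -1.21, SE 0.22, edgeR adjusted p = 0.0212), the long RNA Neat1 (-0.99), haem oxygenase Hmox1 (-0.96) and Fam214b (-0.96) complete the smallest named values.

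The same lists were read under the grouping by score gene UMIs without Mac4, which called 347 of 5394 features (6.43%), 192 higher (3.56%) and 155 lower (2.87%). Replication genes were higher in 19 of 24 cases (median 1.69) and mitosis genes in 4 of 7 (median 1.23). Resident genes were lower in 8 of 19 cases (median -0.26), monocyte-derived genes in 11 of 15 (median -0.42), core macrophage genes in 7 of 19 (median -0.17) and lysosomal genes in 11 of 24 (median -0.26), and 0 members of these 4 lists were higher. Ribosome biogenesis genes were higher in 6 of 20 cases and chaperones in 7 of 18. Mxd4 stood at -0.70 and Ctsd at -0.46, both past the threshold, while Apoe at -0.55 did not pass.

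Interferon-response genes gave different values by cluster and by phase. Over all macrophages 21 of 24 tested members were lower (13 without YAP5SA tissue-1) and 1, the chemokine Cxcl10, higher (median -0.50). The lower ones included Ifi27l2a (-0.43), Ifitm3 (-0.41), Ifit2 (-0.998) and Rsad2 (-0.96). Without Mac4 2 of 24 were lower and 1 higher (median -0.20), and 7 were lower and 0 higher when YAP5SA tissue-2 was left out as well (median -0.46). In G2M against G1 outside Mac4, on 4 libraries, 11 of 25 were higher and 0 lower with a median of 0.70, against a background of 1.65% called higher, among them Ifit2 (log2 fold change 1.56, SE 0.23, edgeR adjusted p = 5.44e-09) and Isg15 (1.33). With library and cluster together as a block, 5 of 24 were higher and 2 lower (median 0.28), against 4.64% of all features called, 1.56% higher and 3.08% lower. Their summed level in Mac3 was 14333 CPM in 251 G1 cells, 12324 CPM in 166 S cells and 18759 CPM in 43 G2M cells. In Mac1 it was 4434 CPM in 1410 G1 cells, 4211 CPM in 1240 S cells and 4470 CPM in 191 G2M cells. In Mac2 it was 6736 CPM in 856 G1 cells, 5448 CPM in 722 S cells and 5858 CPM in 85 G2M cells. The summed level in G2M was thus well above that in G1 in Mac3 alone, close to it in Mac1 and below it in Mac2. In each phase Mac3 was the cluster of these 3 with the highest level.

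The phase difference was then compared between the genotypes. The phase by genotype term called 10 of 9222 features (0.108%), and 577 had an unadjusted p under 0.05. The signed phase difference was lower in YAP5SA for 8 of the 10 (0.0867%) and higher for 2 (0.0217%). Without Control tissue-2 the count was 6 and without Control tissue-3 it was 17, in fits where the lone Control library is assumed to vary like the others. Timp2, an inhibitor of matrix proteases, had 548 and 533 CPM in Control tissue-2, 548 and 347 in Control tissue-3, 579 and 295 in YAP5SA tissue-1, 587 and 319.8 in YAP5SA tissue-2 and 543 and 328 in YAP5SA enriched, so that it fell by 0.85 on the log2 scale in YAP5SA and stood at -0.21 in Control (difference -0.71, SE 0.16, edgeR adjusted p = 0.0142). Srgn, the proteoglycan of secretory granules, was higher outside G1 in both Control libraries (1125 to 1192 and 575 to 784 CPM) and lower in all 3 YAP5SA libraries (1472 to 1074, 2412 to 1541 and 2057 to 1498 CPM). Wfdc17, Cbr2, Ccl6 and Apoe lay below 0 in both genotypes by estimate, and further below it in YAP5SA. For the 2 with the higher signed value in YAP5SA, Retnla and Dcn, the difference turned sign without Control tissue-3, to -1.431 and -0.153. The Control arm of this test has 2 libraries, of which Control tissue-3 has 78 G1 cells and 70 others.

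Fibroblasts of the same 5 libraries served as a second cell class under the same call. On their own, 2394 of 10366 features (23.1%, of which 9.3% higher and 13.8% lower) passed between fibroblasts in S or G2M and in G1, and their replication and mitosis lists had medians of 2.14 and 4.41. The difference between the classes, tested with a class by phase term, was called for 402 of 11735 features (3.43%), 278 larger in macrophages (2.37%) and 124 smaller (1.06%). Larger and smaller refer here to the signed log2 fold change. The split of 278 and 124 turned with the scaling, to 98 and 208 with RLE size factors, and to 52 and 295 without Control tissue-3. The count dropped to 72 when YAP5SA tissue-2 was left out, to 156 when YAP5SA tissue-1 was and to 184 when YAP5SA enriched was. The median over all features was 0.08 with TMM and -0.01 with RLE. For mitosis genes 0 of 55 were larger in macrophages and 3 smaller, and for replication genes 4 of 42 were larger and 1 smaller. Incenp rose by 2.90 in macrophages and 4.21 in fibroblasts (difference log2 fold change -1.28, SE 0.22, edgeR adjusted p = 3.3e-06). Ribosome biogenesis genes were larger in macrophages in 6 of 26 cases and smaller in 0, among them Ncl (0.55 against 0.15, difference log2 fold change 0.45, SE 0.07, edgeR adjusted p = 1.38e-07). Ifit2 and Rsad2 went apart, with -0.998 and -0.96 in macrophages and 0.82 and 1.11 in fibroblasts (differences -1.80 and -2.07, edgeR adjusted p = 8.35e-09 and 1.63e-05). Cdkn2c rose more in macrophages (2.39 against 1.25, edgeR adjusted p = 0.000365). Cdkn1a had -0.70 in macrophages and -0.68 in fibroblasts, where it did not pass (edgeR adjusted p = 0.137). Mitochondrially encoded genes were larger in macrophages for 6 of 7, with a median difference of 0.32, and 6 of 7 were lower in the fibroblasts (median -0.33) and 1 of 7 in the macrophages. Both counts moved with the library left out and with the scaling. The 6 mitochondrially encoded genes became 0 without Control tissue-3 or without YAP5SA enriched, 2 without either YAP5SA tissue library and 3 with RLE size factors. The 6 of ribosome biogenesis became 0 without YAP5SA tissue-2, 1 without YAP5SA enriched, 2 without Control tissue-3 or YAP5SA tissue-1, and 3 with RLE size factors. Chaperones were larger in macrophages in 4 of 18 cases and smaller in 0. They became 0 larger with RLE size factors, without Control tissue-3 or without YAP5SA tissue-2.

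**Figure D5:**
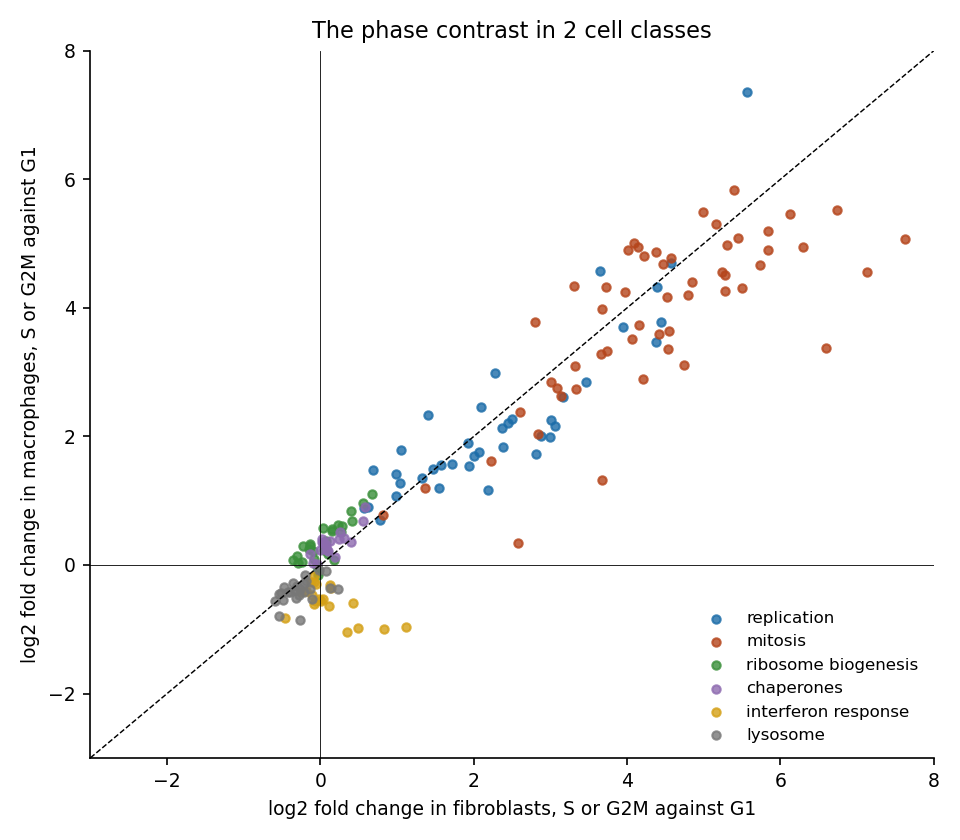
Log2 fold change of S or G2M against G1 in fibroblasts (horizontal axis) and in macrophages (vertical axis) for tested members of 6 gene lists, with a dashed line of equal values. Replication and mitosis genes rise in both classes. Above the line lie 24 of 26 ribosome biogenesis genes and 16 of 18 chaperone genes, counts that were not set against all features. The test of the difference called 6 and 4 of them larger in macrophages, and 3 and 0 with RLE size factors. A few interferon-response genes lie at positive values in fibroblasts and negative values in macrophages.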

How the data were processed

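The deposited table holds UMI counts per gene and cell of 6 Drop-seq libraries, with the authors' cluster, phase call and 2 cell cycle scores per cell, and the fraction of UMIs from mitochondrial genes as the authors computed it (given here in percent). STAR, Picard and Seurat 2.3.4 are named in the submitters' processing notes. The genome build, annotation and settings are not given in the sources used here, and neither are the gene lists of the deposited scores. Scaled values of the authors were not used. A total of 50784032 UMIs lay in 21706 cells, and every macrophage entered.

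In 4 libraries overlapping genes carry joined names. These 863 names were merged with their genes into 699 families, which left 21291 features, and 1236 features counted under only 1 of the 2 ways of annotation were dropped (0.173 and 0.252% of UMIs), so 20055 were kept. Without stated strand use, overlapping genes cannot be told apart. Counts were summed per library and phase over at least 10 cells and tested with edgeR 4.0.16 (R 4.3.3; TMM, filterByExpr, robust quasi-likelihood, library as a block, Benjamini-Hochberg over all features). SE is the size of the log2 fold change divided by the square root of F. DESeq2 1.42.0 was an alternative. CPM of genes and pathway lists are TMM-scaled, and those of markers and clusters are not. Python 3.11.15, NumPy 2.4.6, SciPy 1.17.1 and pandas 2.3.3 did the rest. The labels and the table number the YAP5SA tissue libraries differently, so these were tied to their group only. Thinning kept 90.3% or more of the macrophages of each library.

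The members, the 23 pathway lists and the 13 marker lists were chosen with earlier results of these data known. Named genes were, first, the 15 largest and 15 smallest changes that passed, with an average log2 CPM of at least 5, 1 sign in 5 libraries and a level not more than 5-fold below another class of at least 100 cells. They were, second, the 3 smallest p-values of each list, the 5 score genes of each list with the most UMIs, and the 5 extremes of each difference. Some genes that this rule names are not reported here. Others were named after their values were seen. On simulated counts for 8959 genes the phase test of all macrophages recovered 77.8% of genes changed by 1 on the log2 scale and 100% of those changed by 2, with 0.0570% of unchanged genes called. For Mac1 to Mac3 (8939 genes) it recovered 70.1% and 97.9%. The simulated counts had the same fixed dispersion for all genes, not estimated from these data, and the same phase effect in every library. The rates therefore describe that setting and not these libraries. Alternatives covered normalization, filter, block, depth, cells near the cut, clusters and leaving out each library.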

Additional observations from a re-analysis of the deposited data

Results flagged for a closer look

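The phase difference differed between the genotypes for 10 features, each by a test of the difference (YAP5SA minus Control, log2, edgeR adjusted p under 0.05). Its signed value was lower in YAP5SA for Ccnd1 (-0.913), Wfdc17 (-0.841), Timp2 (-0.711), Srgn (-0.675), Cbr2 (-0.650), Ccl6 (-0.589), Apoe (-0.580) and Ifi27l2a (-0.450). By estimate, Ccnd1 and Srgn lay above 0 in Control and below 0 in YAP5SA. The others lay below 0 in both genotypes and further below it in YAP5SA, as Apoe with -0.581 in Control and -1.133 in YAP5SA. For Retnla, a secreted protein of alternatively activated macrophages, the signed value was higher in YAP5SA by 2.462 (-1.926 in Control, 0.452 in YAP5SA). For Dcn, the matrix protein decorin of fibroblasts, it was higher by 0.828. Both rest on Control tissue-3, where Retnla had 417 UMIs in 25 of 78 G1 cells and 101 UMIs in 16 of 70 others, against 1 and 6 UMIs in Control tissue-2. In YAP5SA enriched, 190 of the 239 Retnla UMIs outside G1 lay in 1 cell. Without Control tissue-3 the values of Retnla and Dcn turned sign, to -1.431 and -0.153.

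The phase difference differed between macrophages and fibroblasts, again by a test of the difference, most for the following genes (macrophages minus fibroblasts, log2). The values on the higher side were Nkg7 (4.691), BC018473 (2.464), Wisp2 (2.279), Slc24a5 (1.979) and Tspan7 (1.747). Nkg7, a gene of cytotoxic lymphocytes, had 59 UMIs in all macrophages, 2 of them in G1, and in YAP5SA enriched its 10 UMIs outside G1 lay in 1 cell. Wisp2 had 29 UMIs in all macrophages (4 in G1), Slc24a5 104 (7 in G1) and Tspan7 83 (11 in G1). Nkg7, Wisp2, Slc24a5 and Tspan7 did not pass the filter on low counts in the test of macrophages alone and entered the test of the difference through the libraries of both classes together, so their values carry little precision. On the lower side were Arhgap11a (-2.883), Arhgap19 (-2.812), Ccl5 (-2.776) and Ctsk (-2.760). Arhgap11a had 1.63 in macrophages and 4.54 in fibroblasts. Ctsk, cathepsin K, had 195 UMIs in 8 of 1086 G1 macrophages of YAP5SA tissue-2, with 113 of them in 1 cell. The part of single cells or of other cell types in these values was not tested.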

How the results depend on the processing

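The count of 2564 features (1224 higher, 1340 lower) moved with the processing. It was 1351 without Mac4, 1203 without Mac4 and the deepest cells, 599 without Mac4 in thinned cells and 1370 without Mac4 with library totals alone. It was 1297 (716 higher) in thinned cells, 1247 (611 higher) with library and cluster together as a block, 917 when grouped by UMIs of the score genes and 347 when so grouped without Mac4. DESeq2 called 1667 (920 higher), and 753 without Mac4, and the Control libraries alone gave 39, with 302 features under an unadjusted p of 0.05. Without the library block, which pairs the phases within a library, 333 were called (284 higher, 49 lower). With no filter on low counts there were 2357, of which 1530 higher and 827 lower. Leaving out each library gave 1389 to 2785. For S the count was 1273 without Mac4 and 1043 to 2208 with a library left out. For G2M it was 233 without Mac4, 280 with the cluster block as well, and 1430 to 2711. For genotype it was 5 without Mac4 and 6 to 17. For macrophages against fibroblasts it was 209 with no filter, 72 to 366 with a library left out, and turned in its split to 143 and 184 with library totals. The difference in the share outside G1 was 8.38 to 20.6 points with a library left out and 12.8 in the tissue libraries alone. The phases were paired within each library. The labels do not say that Control and YAP5SA libraries form pairs, so the genotypes were not paired.

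Signs turned for Cdkn2d without Mac4 (-0.057, and -0.061 with DESeq2, -0.072 without the deepest cells, -0.196 in thinned cells and -0.045 with library totals). They also turned for Paics (-0.008) and Inpp5d (0.156) in the Control libraries alone, for Il4ra (0.002) without Mac4 in thinned cells, and for Uqcr10 (-0.002) and Psmc3 (-0.008) when grouped by score gene UMIs without Mac4. For the genotype difference they turned for Retnla (-1.431) and Dcn (-0.153) without Control tissue-3, and the values with a library left out ran up to 2.674 and 0.958. The causes were not tested. The Control values rest on 2 libraries, 1 of them with 148 macrophages. The alternatives that combine 2 of these choices, the grouping by score gene UMIs and those within 1 genotype were chosen after seeing the data.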
